A study of Mus musculus with 6 samples.

Results

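The 10 genes described here are 9 classical type II cadherins (Cdh6, Cdh7, Cdh8, Cdh9, Cdh10, Cdh11, Cdh12, Cdh18 and Cdh20) and Cdh13, chosen by name from the 32285 genes of the count matrices, by a rule that uses no measured value, although earlier results of these data were known when the genes were chosen. Nuclei came from the prelimbic part (PL) of the medial prefrontal cortex of C57BL/6 males, in 6 libraries that each pooled 3 males of different mothers. Run males were raised by dams with a running wheel and Sed males by dams in standard cages. After weaning the males were group-housed (GH) or socially isolated (SI). Cohort 1 gave 1 library each of Run GH and Sed GH, from males that had gone through tube tests. These males were picked by rank, as those at the top and bottom of their group. Cohort 2, whose males had no such tests, gave 1 library for each of the 4 combinations of rearing and housing. The labels give postnatal day 21 for the dissection whereas the study's text describes adults, so the age of the tissue rests on that text. No male had a wheel in its own cage, and a library holds pooled males, so the spread between libraries is the only measure of error.

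Classical cadherins are transmembrane proteins whose ectodomains bind cadherins on the neighbouring cell in the presence of calcium and whose tails bind catenins, which connect them to actin. Type II members bind several partners of their own family with graded strength, and neurons of different layers and classes are known to express different combinations of them, which takes part in sorting, arealisation and synapse specificity. Cdh13 (T-cadherin) lacks the transmembrane and cytoplasmic parts and is held at the membrane by a glycosylphosphatidylinositol anchor.

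The 10 genes lie on 3 chromosomes (mm10, GENCODE gene bodies). Chromosome 15 holds 5 of them within 10.45 Mb: Cdh6 (chr15:13028701-13173675, minus strand), Cdh9 (chr15:16728756-16857094, plus), Cdh10 (chr15:18818947-19014236, plus), Cdh12 (chr15:20449265-21589533, plus) and Cdh18 (chr15:22549022-23474418, plus). Chromosome 8 holds Cdh8 (chr8:99024471-99416471, minus), Cdh11 (chr8:102632095-102785642, minus) and Cdh13 (chr8:118283733-119324921, plus). Chromosome 1 holds Cdh20 (chr1:104768529-104995481, plus) and Cdh7 (chr1:109982431-110140157, plus). The gene bodies run from 128.3 kb (Cdh9) to 1140 kb (Cdh12). Because intronic reads were counted, a long gene gathers more counts than a short one, and levels of different genes are compared below only per 100 kb of gene body.

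RefSeq promoters (GRCm38.p6, 250 bases before to 50 after the start) matched 8 of the 10 genes, all but Cdh11 and Cdh13. Among 42 pairs of promoters of different members, the longest identical run was 15 bases, between Cdh6 and Cdh9, and the next longest was 13 bases. The run occurs, on either strand, in 2 of the 32851 promoters of the table (0.00609%), which are these 2. Cdh6 and Cdh9 have among the most opposed patterns over cell classes given below, which took no part in the choice of this pair. The 2 sequences are shown because their shared run was the longest. They are printed 5′ to 3′ on the strand of the gene, with the shared run in capitals (Cdh6 at chr15:13173626-13173925, Cdh9 at chr15:16728665-16728964):
Cdh6: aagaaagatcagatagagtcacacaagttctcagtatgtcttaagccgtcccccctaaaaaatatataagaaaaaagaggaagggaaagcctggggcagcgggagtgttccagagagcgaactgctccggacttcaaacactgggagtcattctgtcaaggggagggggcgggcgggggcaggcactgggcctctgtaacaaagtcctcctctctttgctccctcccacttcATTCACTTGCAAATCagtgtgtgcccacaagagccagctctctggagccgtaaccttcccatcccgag
Cdh9: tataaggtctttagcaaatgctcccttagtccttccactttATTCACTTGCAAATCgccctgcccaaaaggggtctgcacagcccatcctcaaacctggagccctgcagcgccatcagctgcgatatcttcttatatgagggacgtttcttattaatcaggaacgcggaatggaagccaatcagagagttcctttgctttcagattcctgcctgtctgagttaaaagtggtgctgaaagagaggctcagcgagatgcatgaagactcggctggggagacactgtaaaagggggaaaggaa
The run begins 18 bases before the RefSeq start site in Cdh6 and 209 bases before it in Cdh9, where the GENCODE gene body begins upstream of the RefSeq start, at 16728756. GC content was 53.0% in the Cdh6 window and 48.7% in the Cdh9 window. A match of letters is a description and says nothing of a factor bound there.

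The libraries held 19134955 to 188952936 unique molecular identifiers (UMIs), of which 42595 nuclei passed the filters, 4997 to 9936 per library with medians of 1637 to 6250 UMIs. The 2 cohort 1 libraries stood apart: droplets without a nucleus held 20.8% and 22.4% of the UMIs of a median nucleus there, against 4.47% to 8.07% in cohort 2. Clusters were built without the 10 genes, so that these took no part in defining the classes, and were named from markers as, for example, L6b-like. The suffix is left out below. Of the nuclei, 40919 fell into 20 classes, 17 of which held at least 10 nuclei in every library, and any 2 libraries shared 5 to 22 barcodes. The classes without a name are unnamed pyramidal (led by Gm11639, Gm34544, Il1rapl2, 1700023F02Rik and Rmst) and unnamed inhibitory. L6b is small, with 244 nuclei and 10 in the Sed GH library of cohort 2. Its marker Ccn2 had 13.67 to 175.7 CPM there against 0.4766 to 2.741 in all nuclei, and Pvalb had 31.15 to 66.52 CPM in PV nuclei against 1.525 to 4.85. Levels are in CPM, the UMIs of a gene summed over a class in a library and scaled to a common total of UMIs, and are given as lowest, median and highest of the 6 libraries.

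Cdh18 and Cdh13 had their highest levels in the deepest cortical neurons. Cdh18 was highest in L6b nuclei, at 2811, 3255 and 3990 CPM, followed by L5 near-projecting nuclei (1638, 1854 and 2221 CPM) and L6 corticothalamic nuclei (1235, 1437 and 1852 CPM). L2/3 nuclei had 111.4, 154.9 and 279.0 CPM. No library of L6b overlapped with any of L5 near-projecting nuclei, nor any of L6 corticothalamic nuclei with the next class, unnamed pyramidal (648.4, 705.3 and 1085 CPM), whereas L5 near-projecting and L6 corticothalamic nuclei overlapped. Among the 16 steps between neighbouring classes in the order of Cdh18 levels, 3 were free of overlap. The mean of Cdh18 in L6b was 15.46 times that in L5 extratelencephalic nuclei, and 39.94 times that in NPY interneurons, its lowest class, a ratio that ran from 19.12 to 110.1 over the libraries. NPY levels (36.24 to 155.4 CPM) were below those of droplets without a nucleus in every library, and once that background was subtracted the means were 3625 CPM in L6b and 25.6 CPM in NPY nuclei, a wider gap.

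Cdh13 was also highest in L6b, at 1739, 2899 and 3680 CPM, but its next classes were different ones. SST interneurons had 1354, 1418 and 2212 CPM and L5 extratelencephalic neurons 1317, 1485 and 1815 CPM, and these overlapped with each other. Mid-layer nuclei (163.3, 222.5 and 261.2 CPM) and L5 near-projecting nuclei (159.8, 224.0 and 333.5 CPM) had little of it. L5 extratelencephalic nuclei had 6.981 times the mean of mid-layer nuclei, between 6.211 and 8.065 times in the single libraries. The 2 L5 classes were thus ordered oppositely by the 2 genes: L5 near-projecting nuclei were high in Cdh18 and low in Cdh13, L5 extratelencephalic nuclei the reverse, in every library.

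Cdh11, a cadherin first described in osteoblasts and mesenchyme, followed Cdh18 more than any other member did. It had 702.0, 742.1 and 820.0 CPM in L5 near-projecting, 586.9, 721.6 and 779.2 CPM in L6 corticothalamic and 492.1, 651.8 and 776.3 CPM in L6b nuclei, all overlapping. Its lowest class was PV interneurons, with 105.8, 126.9 and 234.3 CPM, and the means of its highest and lowest classes differed 5.102 times. These PV levels were below those of droplets without a nucleus in every library. Once that background was subtracted the means were 802.4 CPM in L5 near-projecting and 114.6 CPM in PV nuclei, a wider gap.

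**Figure D1:**
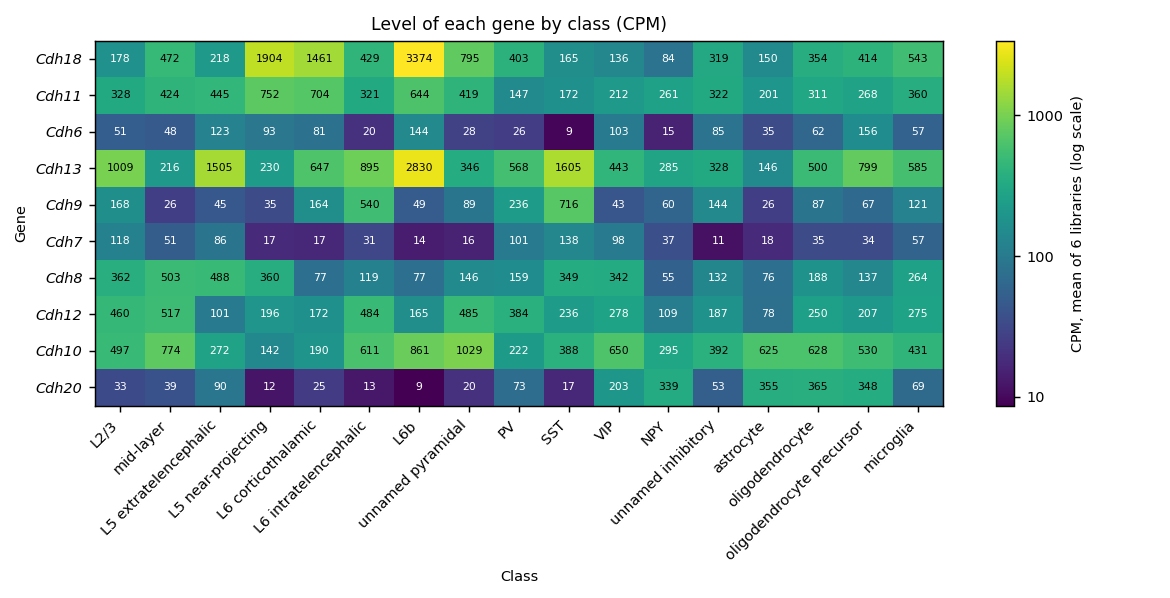
Mean level over 6 libraries (CPM of summed UMIs, colour on a log scale) of the 10 cadherins in rows across 17 classes in columns. Cdh18 peaks in L6b at 3374 CPM and Cdh13 in L6b at 2830 CPM, Cdh9 in SST interneurons at 716.1 CPM, and Cdh20 reaches its highest levels outside pyramidal nuclei, with 365.3 CPM in oligodendrocytes.

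Cdh8, Cdh12, Cdh7 and Cdh10 each had more in L2/3 or the mid-layer than in L6 corticothalamic nuclei, but differed in the other classes. Cdh8, known for its part in early cortical patterning and in thalamocortical synapses, had 436.7, 476.0 and 625.4 CPM in mid-layer and 371.3, 480.8 and 578.6 CPM in L5 extratelencephalic nuclei, against 56.96, 63.04 and 129.8 CPM in L6 corticothalamic nuclei. Cdh12 shared the mid-layer peak (449.2, 494.0 and 685.6 CPM) but had 71.06, 84.34 and 180.0 CPM in L5 extratelencephalic nuclei, where Cdh8 was high. L6 intratelencephalic nuclei, at 398.1, 488.3 and 562.7 CPM of Cdh12, overlapped with the mid-layer and with L2/3 (363.8, 445.9 and 562.8 CPM). Chandelier-type interneurons had a Cdh12 mean of 1047 CPM, with libraries from 732.9 to 1360 CPM, yet only 76 nuclei stood behind it and it entered no test. Cdh7 had 85.2, 115.4 and 168.2 CPM in L2/3, against 9.428, 17.54 and 23.38 CPM in L6 corticothalamic nuclei, and was similarly high in SST interneurons (84.74, 141.8 and 177.5 CPM).

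Cdh10 was highest in the unnamed pyramidal class, at 806.2, 1020 and 1317 CPM, next to L6b (431.8, 877.3 and 1333 CPM), and L6 intratelencephalic nuclei (438.0, 603.7 and 826.6 CPM) overlapped with L2/3 (383.8, 507.3 and 602.5 CPM). It was lowest in L5 near-projecting nuclei (66.57, 132.9 and 249.5 CPM). L5 extratelencephalic nuclei had 232.4, 254.9 and 358.9 CPM and L6 corticothalamic nuclei 148.6, 198.8 and 244.8 CPM, below every library of the mid-layer (669.4, 776.0 and 875.4 CPM).

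Cdh9, which is known from the synapses of hippocampal mossy fibres, was highest in an interneuron class. It had 389.3, 761.3 and 977.3 CPM in SST interneurons and 122.3, 258.5 and 338.1 CPM in PV interneurons. Among pyramidal classes it peaked in L6 intratelencephalic nuclei (255.6, 573.0 and 782.6 CPM) and was lowest in the mid-layer (21.63, 24.61 and 33.08 CPM). The SST mean was 27.52 times the mid-layer mean, and between 14.48 and 37.68 times in single libraries. The mid-layer level was below background droplets in all 6 libraries (38.38 to 135.2 CPM), and with the background subtracted SST nuclei had 785.7 and mid-layer nuclei 18.06 CPM, while astrocytes became the lowest class at 12.01 CPM. SST and L6 intratelencephalic nuclei overlapped.

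Cdh20 had its highest mean outside the neurons, and Cdh6 was about equally high in a glial and a neuronal class. Cdh6, with a role in boundaries of the developing forebrain, had 110.7, 122.7 and 141.1 CPM in L5 extratelencephalic and 60.03, 98.18 and 152.0 CPM in VIP nuclei, against 0, 8.863 and 20.61 CPM in SST nuclei, and its highest mean, 156.1 CPM (108.8 to 225.0), was in oligodendrocyte precursors. L6b nuclei followed with 86.26, 156.4 and 207.1 CPM, which overlapped and lay below the precursors in 4 of 6 libraries. Cdh20 had 265.9, 336.3 and 470.5 CPM in NPY interneurons, 289.5, 345.0 and 464.7 CPM in astrocytes, 300.6, 360.9 and 435.3 CPM in oligodendrocytes and 228.0, 333.0 and 465.0 CPM in their precursors, and these 4 overlapped. VIP interneurons followed at 176.2, 196.6 and 228.0 CPM, below every NPY library, and L6b was lowest at a mean of 8.684 CPM. Once the content of background droplets was subtracted, the class with the highest level was the same for 9 of the 10 members, and for Cdh20 it became the astrocyte class, at 432.2 CPM.

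**Figure D2:**
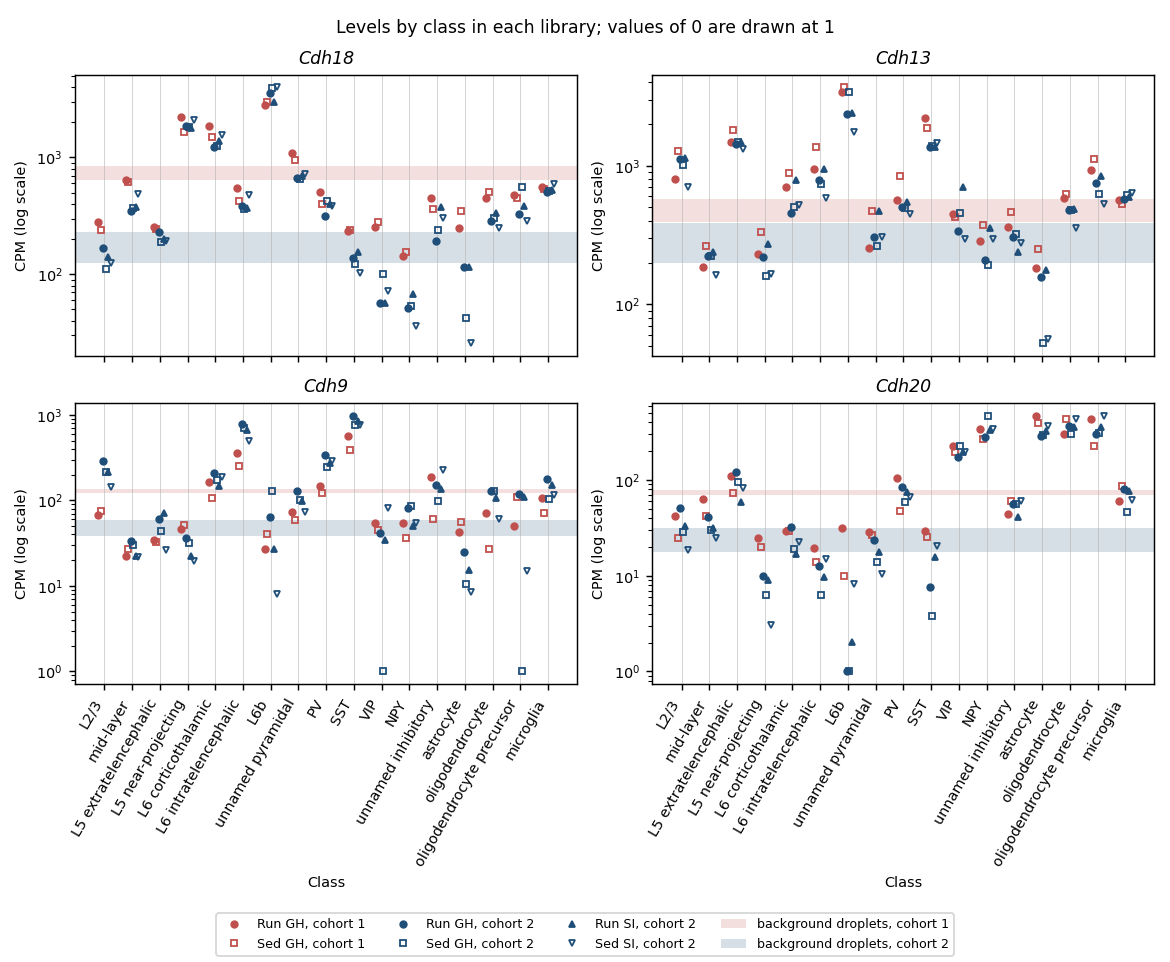
Level of Cdh18, Cdh13, Cdh9 and Cdh20 in each of the 6 libraries (points; CPM on a log axis, values of 0 drawn at 1) for the 17 classes, with bands for the range of the background droplets of each cohort. All Cdh18 points of L6b (2811 to 3990 CPM) lie above those of L5 near-projecting nuclei (1638 to 2221 CPM).

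Levels need the free RNA beside them. Of the 170 levels of 10 members in 17 classes, 34 were below those of the background droplets in all 6 libraries and 112 in both libraries of cohort 1. The summed level of 5 pyramidal markers in microglia was 66.4% to 84.5% of that in pyramidal nuclei, in oligodendrocytes 41.2% to 74.0%, in oligodendrocyte precursors 28.5% to 47.8% and in astrocytes 11.1% to 34.1%. A cadherin at a like percentage in a glial class is therefore at the level of neuronal RNA there, and is not read as expression. Cdh20 stood well above it, with a median of 1040% of its pyramidal level in astrocytes, 1070% in oligodendrocytes and 909% in oligodendrocyte precursors. In microglia its median was 204% (123% to 269%), below the 259% (173% to 363%) of inhibitory nuclei. The cohort 1 levels of Cdh20 in microglia (60.77 and 86.04 CPM) lay on either side of the background droplets. Its cohort 2 levels there (45.94 to 81.01 CPM) were above them (17.63 to 31.92 CPM). Whether microglia express Cdh20 was not tested, and it is not read as expression here. Cdh6 reached a median of 239% in oligodendrocyte precursors. Cdh10 in astrocytes was at 116% of its pyramidal level (79.6% to 141% over libraries), which is 472.0, 642.4 and 718.1 CPM, and at 93.8% to 121% in oligodendrocytes. Cdh13 was at 89.3% to 145% in oligodendrocyte precursors. In background droplets Cdh18 had 647.8 and 843.1 CPM in cohort 1 and 125.1 to 230.5 CPM in cohort 2, and Cdh10 had 580.7 to 626.6 CPM against 125.3 to 204.1 CPM. Cdh6 had 59.91 and 61.16 CPM there in cohort 1 and 32.98 to 42.86 in cohort 2, and Cdh20 had 70.28 and 78.62 against 17.63 to 31.92 CPM.

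Per 100 kb of gene body, different members led in different classes. In all pyramidal nuclei Cdh11 (290.4 CPM per 100 kb) and Cdh10 (288.1) led, and Cdh20 was last with 15.89. In inhibitory nuclei Cdh9 led with 269.4 CPM per 100 kb and Cdh6 was last with 22.21. Cdh9 also led in SST (558.0) and in L6 intratelencephalic nuclei (421.1), Cdh11 in L5 near-projecting (489.8) and L6 corticothalamic nuclei (458.4), and Cdh10 in the unnamed pyramidal class (526.9 CPM per 100 kb). Summed over the 10 genes without regard to length, L6b had 8167 CPM (7163 to 9661 over libraries) whereas the means of the other 16 classes ran from 1541 to 3796 CPM. Most of the L6b sum came from 2 long genes, Cdh18 (mean 3374 CPM) and Cdh13 (2830 CPM).

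As a description over the 17 classes, which share libraries and depth, the members formed loose groups. The Pearson correlation of mean log2(CPM + 1) was 0.757 for Cdh11 and Cdh18, 0.601 for Cdh7 and Cdh8, 0.535 for Cdh6 and Cdh11 and 0.504 for Cdh8 and Cdh12. The most opposed pairs were Cdh18 and Cdh20 (-0.68), Cdh6 and Cdh9 (-0.607), Cdh11 and Cdh20 (-0.54) and Cdh7 and Cdh18 (-0.516). Cdh6 and Cdh9, whose promoters are printed above, are thus both neighbours on chromosome 15 and among the most opposed members over the classes.

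Among 10057 genes with at least 20 CPM in a class, those whose pattern over the 17 classes was most like that of a member were Nck2 (0.898) and Zmiz1os1 (0.883) for Cdh11, and Diras2 (0.869) and Rai14 (0.855) for Cdh18. For Cdh8 they were Gm15680 (0.894) and A330008L17Rik (0.881), and for Cdh12 Gm15397 (0.893) and Gm16351 (0.884). Cdh20 was most like Supt6 (0.933) and Agbl3 (0.893), Cdh9 like Klf5 (0.865) and Mdm1 (0.794), and Cdh7 like 4930547E14Rik (0.827) and Fam220a (0.804). Likeness was weaker for Cdh10 (Arhgap42 0.747, Rabep1 0.63), Cdh13 (Slc8a1 0.733, Rbfox1 0.728) and Cdh6 (Mnat1 0.729, Fry 0.716).

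The first comparison between classes set pyramidal against inhibitory nuclei within each library. Of the 10 members, 9 differed in edgeR's quasi-likelihood test at an adjusted p under 0.05, against 53.8% of all 15604 genes tested (24.3% higher and 29.6% lower in pyramidal nuclei). Higher in pyramidal nuclei were 6 members, led by Cdh18 (log2 difference 1.35 ± 0.06 SE, adjusted p = 2.2e-12) and Cdh11 (1.33 ± 0.08), followed by Cdh6 (0.97 ± 0.08), Cdh10 (0.88 ± 0.05), Cdh8 (0.63 ± 0.06) and Cdh12 (0.48 ± 0.06). Lower were Cdh9 (-1.29 ± 0.06, adjusted p = 2.9e-12), Cdh20 (-1.18 ± 0.10) and Cdh7 (-0.55 ± 0.07). In inhibitory nuclei Cdh11 and Cdh6 were below the background droplets of their own library in every library, so the size of their differences is uncertain. Both kept their call in 14 of 14 alternatives, at 1.29 to 1.63 for Cdh11 and 0.94 to 1.19 for Cdh6. Cdh18 had 479.1, 608.2 and 746.4 CPM in pyramidal and 197.3, 256.6 and 351.8 CPM in inhibitory nuclei, without overlap. Cdh9 ran the other way, with 82.17, 134.3 and 198.3 CPM against 189.8, 364.2 and 489.2 CPM, and was higher in inhibitory nuclei of each library. Cdh13 did not pass the test (-0.04 ± 0.07, adjusted p = 0.60), and its classes of high level include both SST and L5 extratelencephalic nuclei. Of the 16 other classical cadherins and catenins, 6 were higher and 3 lower, the largest being Cdh22 (1.62 ± 0.08, higher), Ctnnd1 (0.71 ± 0.06), Jup (0.69 ± 0.19) and Cdh4 (-0.65 ± 0.05). Jup encodes plakoglobin and Ctnnd1 p120 catenin, which bind cadherin tails.

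The second comparison set L2/3 against L6 corticothalamic nuclei and gave the largest differences. Again 9 of the 10 members passed, against 42.4% of 14282 genes (23.7% higher and 18.7% lower in L2/3). Cdh7 (2.70 ± 0.11) and Cdh8 (2.24 ± 0.10) were the members most enriched in L2/3, with Cdh12 (1.42 ± 0.07), Cdh10 (1.40 ± 0.08), Cdh13 (0.66 ± 0.10) and Cdh20 (0.41 ± 0.13, adjusted p = 0.013). In L6 corticothalamic nuclei Cdh7 and Cdh8 were below the background droplets of every library, so the size of their differences is uncertain. With the background subtracted, L2/3 and L6 corticothalamic means were 123.4 and 12.03 CPM for Cdh7 and 369.7 and 51.86 CPM for Cdh8. Cdh18 was lower in L2/3 by the largest amount of any member (-3.08 ± 0.12, adjusted p = 1.4e-13), with Cdh11 (-1.09 ± 0.07) and Cdh6 (-0.69 ± 0.12) on its side. In L2/3 nuclei Cdh18 was below the background droplets of its own library in every library, so the size of the Cdh18 difference is uncertain too. With the background subtracted, the L2/3 and L6 corticothalamic means of Cdh18 were 139.7 and 1577 CPM. Every library of Cdh7, Cdh8, Cdh12 and Cdh10 in L2/3 was above every library in L6 corticothalamic nuclei, and those of Cdh18 and Cdh11 were below. Cdh9 did not pass (-0.13 ± 0.16, adjusted p = 0.57), and its 66.69 to 287.5 CPM in L2/3 spanned the 107.5 to 207.2 CPM of L6 corticothalamic nuclei. The Cdh20 call was lost in 5 of 14 alternatives: without any one of 3 libraries (Run GH of cohort 1, Run GH of cohort 2, Run SI), at 0.32, 0.34 and 0.30, with DESeq2 (0.36) and with no replicate block (0.39). In the list of other cadherins and catenins 3 were higher and 7 lower, with Cdh22 (2.65 ± 0.14), Jup (-2.53 ± 0.17), Cdh4 (2.36 ± 0.12) and Ctnna1 (-1.63 ± 0.12) the largest.

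**Figure D3:**
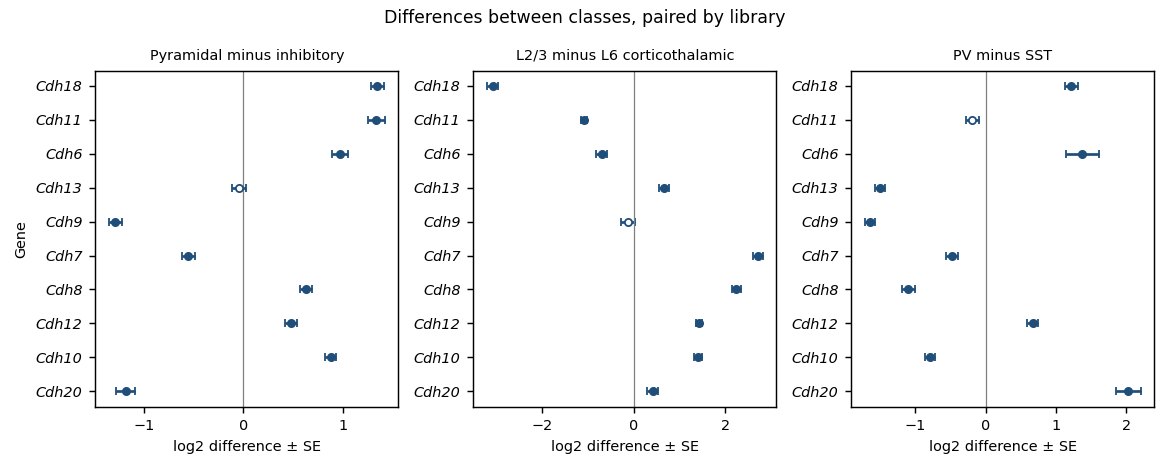
Log2 difference ± SE (edgeR fit, 6 paired libraries) of each member for pyramidal minus inhibitory, L2/3 minus L6 corticothalamic and PV minus SST nuclei, with filled points for an adjusted p under 0.05. The 9 filled points of the middle panel run from -3.08 for Cdh18 to 2.70 for Cdh7.

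PV interneurons, the class at the centre of the study, were set against SST interneurons. Of the members 9 passed, against 26.1% of 10953 genes (14% higher and 12.1% lower in PV). PV nuclei had more Cdh20 (2.03 ± 0.18, 47.89 to 104.7 against 3.822 to 29.34 CPM), Cdh6 (1.38 ± 0.24), Cdh18 (1.22 ± 0.09, 314.6 to 502.1 against 101.6 to 240.5 CPM) and Cdh12 (0.67 ± 0.08). They had less Cdh9 (-1.64 ± 0.07, adjusted p = 2.7e-23), Cdh13 (-1.50 ± 0.07, 450.3 to 843.7 against 1354 to 2212 CPM), Cdh8 (-1.10 ± 0.09), Cdh10 (-0.79 ± 0.07) and Cdh7 (-0.48 ± 0.09). The ranges of Cdh20, Cdh18, Cdh12, Cdh9, Cdh13, Cdh8 and Cdh10 did not overlap between PV and SST nuclei, and those of Cdh6 and Cdh7 did. Cdh11 gave -0.19 ± 0.09 (adjusted p = 0.14) and passed only without the Run GH library of cohort 1, at -0.32. Cdh6 in PV nuclei (16.43 to 39.25 CPM) was below the background droplets of its own library in all 6 libraries, and in SST nuclei it was at or near 0 in part of them, so its levels there cannot be told apart from free RNA and the size of its difference is uncertain. With the background subtracted the difference was 2.35 and was still called. Cdh18 was below the background droplets of its own library in SST nuclei of all 6 libraries and in PV nuclei of both cohort 1 libraries. The size of the Cdh18 difference is therefore uncertain too. With the background subtracted its means were 383.0 CPM in PV and 114.2 CPM in SST nuclei. In the list 3 genes were higher and 4 lower, with Cdh4 (-2.46 ± 0.08), Cdh22 (-1.83 ± 0.20), Ctnna1 (1.82 ± 0.20) and Cdh2 (-0.59 ± 0.09) the largest.

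The comparison of maternal environment asked whether these patterns differ between Run and Sed males. None of the 10 members was called in pyramidal nuclei (0% of 17944 genes were called) or in PV nuclei (0.0972% of 10285 genes), nor in any of 155 tests in 16 other classes (0.0366% of 142267). Over all 175 member tests in 18 classes, 23 had an unadjusted p under 0.05 (13.1%, against 6.44% of all gene tests), and DESeq2 also called no member. These tests repeat 10 genes over classes that share libraries. Pooled pyramidal nuclei also contain the layer classes, so the tests are not independent of one another. In pyramidal nuclei the values ran from -0.09 ± 0.23 (Cdh8) to 0.36 ± 0.08 (Cdh7, adjusted p = 0.67). Cdh7 had 58.06 CPM in Run and 43.66 in Sed of cohort 1, 82.22 and 60.62 in the group-housed libraries of cohort 2, and 61.85 and 47.64 in the isolated ones. Run was above Sed in 3 of 3 pairs, while the 2 groups overlapped. In background droplets Run was above Sed for Cdh7 in the same 3 pairs (83.39 against 67.35, 46.83 against 34.12 and 39.68 against 34.08 CPM), and both cohort 1 levels lay below them. Cdh20, with 49.29 and 32.75, 46.11 and 32.99, and 28.83 and 26.42 CPM in the same order, gave 0.35 ± 0.13 (adjusted p = 0.67), with both cohort 1 levels below the background droplets (78.62 and 70.28 CPM).

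In single layers, Cdh20 in L2/3 nuclei had 42.36 CPM in Run GH against 24.76 in Sed GH of cohort 1, 50.92 against 28.5 in cohort 2 and 33.06 against 18.39 in SI, a difference of 0.77 ± 0.13 that missed the threshold (adjusted p = 0.26). Every Run library lay above every Sed library. Background droplets had 78.62 and 70.28 CPM in Run and Sed of cohort 1, above both L2/3 values, 31.92 and 17.63 in GH of cohort 2, and 18.25 and 20.11 in SI, so the cohort 1 values and that of Sed SI cannot be told apart from free RNA. Cdh7 in L5 extratelencephalic nuclei gave 0.70 ± 0.14 (adjusted p = 0.25) with Run higher in 3 of 3 pairs, from 70.68, 141.9 and 113.1 CPM against 51.63, 85.5 and 52.85, of which both cohort 1 values were below the background droplets given above. Cdh10 in L5 near-projecting nuclei gave 0.65 ± 0.16 (adjusted p = 0.17), with 249.5, 134.9 and 130.8 CPM in Run against 172.1, 97.12 and 66.57 in Sed. All 6 were below the background droplets of their libraries, which were also higher in Run in each pair (626.6 against 580.7, 204.1 against 136.2 and 160.6 against 125.3 CPM). Without a filter on low counts these 3 passed, with adjusted p of 0.00055, 0.00098 and 0.042, where 0.228% of all gene tests in these 16 classes were called. In PV nuclei, Cdh6 gave 0.77 ± 0.30 and Cdh20 0.64 ± 0.21 (adjusted p = 0.77 and 0.73), with Run higher in 3 of 3 pairs for both, with Cdh6 below the background droplets in each library and Cdh20 below them in Sed of cohort 1.

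Isolation differed within cohort 2 only. No member was called in pyramidal (0%), PV (0%) or other nuclei (0.00281%), with 27 of 175 tests at an unadjusted p under 0.05 (15.4%, against 2.11% of all gene tests), and DESeq2 called none. Here too the tests repeat the same genes over classes that share libraries and are not independent of one another. The most negative pyramidal values were those of Cdh20 (-0.49 ± 0.16), Cdh9 (-0.41 ± 0.10) and Cdh7 (-0.37 ± 0.10), all with adjusted p = 1.0. Cdh9 had 149.9 CPM in Run SI against 198.3 in Run GH and 118.7 in Sed SI against 160.3 in Sed GH. Each isolated library was below its group-housed counterpart, as were its background droplets (50.09 against 59.4 and 38.38 against 46.91 CPM). The fit holds a single housing term for Run and Sed males. In pyramidal nuclei the log2 ratio of isolated over group-housed CPM had opposite signs in Sed and Run for some members. These were Cdh13 (-0.326 in Sed and 0.265 in Run), Cdh6 (0.0953 and -0.225) and Cdh12 (0.0112 and -0.344). The other members had the same sign in both. Of the 16 listed cadherins and catenins, none was called in 172 tests of either comparison.

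These absences of calls, from fits with 2 residual degrees of freedom (1 where a library is left out), depended on cohort 1. Leaving out either of its libraries left cohort 2 alone to set the Run and Sed difference, and 3 members were then called in pyramidal nuclei (Cdh7 0.32, Cdh8 -0.47 and Cdh9 0.23), where 14.4% of all genes were called without the Run GH and 14.4% without the Sed GH library of cohort 1. For isolation the same fits called Cdh9 (-0.41) and Cdh20 (-0.51), with 0.189% and 0.188% of genes called. In the 16 other classes 20 and 21 member tests were called for Run against Sed without Run GH or Sed GH of cohort 1, where 3.3% of all gene tests were called in either fit. For isolation 4 and 4 were called, where 0.104% and 0.111% of gene tests were, and cohort 2 alone gave 2, where 0.0732% were.

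**Figure D4:**
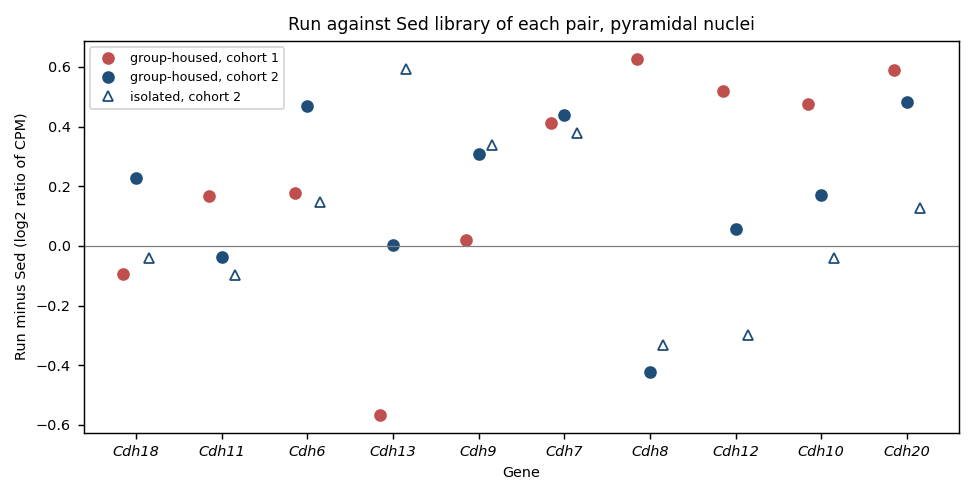
Log2 ratio of CPM of Run over Sed in pyramidal nuclei for each member in the 3 pairs of libraries (GH of cohort 1, GH of cohort 2, SI of cohort 2). Cdh7 is above 0 in all 3 pairs (0.411, 0.44 and 0.377), whereas Cdh8 is at 0.628 in cohort 1 and at -0.422 and -0.331 in cohort 2.

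The cohorts themselves differed for 2 members in pyramidal nuclei, with 38.1% of all genes called (20.3% higher and 17.8% lower in cohort 2). Cdh9 was higher in cohort 2 (0.94 ± 0.10, adjusted p = 0.0018), at 118.7 to 198.3 CPM against 82.17 and 83.34. Cdh18 was lower (-0.64 ± 0.11, adjusted p = 0.0064), at 479.1 to 616.5 CPM against 699.6 and 746.4, and it was not called without the Sed GH library of cohort 2 (-0.54). The cohort ranges did not overlap for either gene. Both cohort 1 levels of Cdh9 were below the background droplets (122.5 and 135.2 CPM), and those of Cdh18 lay on either side of them (647.8 and 843.1 CPM). Of the listed cadherins and catenins 1 was higher and 3 were lower. Without the Run GH or the Sed GH library of cohort 1, 6 and 5 members were called, as were 48.2% and 48.8% of all genes. Prior testing, the choice of males by rank, depth and free RNA differ between the cohorts together and cannot be told apart.

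The difference between Run and Sed was then compared between the cohorts in a fit with 1 residual degree of freedom. In pyramidal nuclei 5 of 10 members were called, against 11.1% of 18686 genes (3.88% higher and 7.26% lower). Cdh8 differed most (-1.14 ± 0.12, adjusted p = 1.4e-08): Run had 417.7 and Sed 270.3 CPM in cohort 1, whereas in cohort 2 Run had 259.9 and Sed 348.2 CPM under group housing, and 259.4 and 326.3 CPM under isolation. Cdh12 (-0.78 ± 0.13), Cdh10 (-0.55 ± 0.12) and Cdh11 (-0.37 ± 0.12, adjusted p = 0.034) had the same sign. Cdh13 had the other (0.73 ± 0.14, adjusted p = 0.00041), with Run below Sed in cohort 1 (641.1 against 949.4 CPM), nearly equal in GH of cohort 2 (698.3 against 697.4) and above in SI (839.0 against 556.4). In background droplets Run was also below Sed for Cdh13 in cohort 1 and above it in SI, with 393.0 CPM in Run against 574.2 in Sed of cohort 1, 290.4 against 211.0 in GH and 385.9 against 198.5 in SI of cohort 2, and Cdh8 had 439.9 against 358.6, 135.8 against 130.8 and 137.6 against 133.9 CPM. With the background subtracted the 2 differences were 0.76 and -1.23, those of Cdh12, Cdh10 and Cdh11 were -0.84, -0.64 and -0.44, and all 5 were called. The cohort 1 levels of Cdh8, Cdh10 (611.7 CPM in Run and 440.0 in Sed) and Cdh11 (447.3 and 398.7 CPM) were below the background droplets of their libraries. Those droplets had 626.6 and 580.7 CPM of Cdh10 and 490.1 and 521.3 CPM of Cdh11. For Cdh12 the Sed level was below them (364.7 against 428.2 CPM) and the Run level above. Levels below the droplets cannot be told apart from free RNA. Each cohort 1 value is a single pair of pools, and cohort 1 holds group-housed libraries only, whereas the cohort 2 side of the fit takes in the isolated pair. Between the group-housed pairs alone the log2 ratio of Run over Sed went from 0.628 to -0.422 for Cdh8, from 0.52 to 0.0566 for Cdh12, from 0.475 to 0.169 for Cdh10, from 0.166 to -0.0366 for Cdh11 and from -0.566 to 0.00186 for Cdh13, while the isolated pair was at -0.331, -0.299, -0.0409, -0.096 and 0.593. The group-housed libraries alone leave no residual degree of freedom for a test. DESeq2 called 2 of the 5, Cdh8 and Cdh12, and 2.22% of all genes. In the list, Cdh24 was higher (1.22) and 4 catenins lower, with Ctnna3 at -1.82, Ctnna1 at -0.75, Ctnnd1 at -0.58 and Ctnna2 at -0.35.

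The make-up of the pyramidal nuclei moved with these libraries. L6 corticothalamic nuclei, which have little Cdh8, made up 9.49% (Run) and 23.2% (Sed) of the pyramidal nuclei of cohort 1, 18.0% and 11.7% in GH of cohort 2 and 15.5% and 14.0% in SI. The fit was therefore repeated within each of 8 pyramidal classes, an alternative chosen after the pooled values were seen, in which 3.62% of 98452 gene tests were called. Cdh8 was negative in 8 of 8 classes and called in 5, with the called values between -0.81 in the unnamed pyramidal class and -1.25 in L5 near-projecting nuclei. Cdh12 was also negative in 8 of 8 (5 called), as was Cdh11 (4 called), and Cdh13 positive in 8 of 8 (5 called, up to 1.16 in the unnamed pyramidal class). Cdh10 was negative in 7 of 8, called in 1 class, and was 0.12 in L5 near-projecting nuclei. Of members not called in the pooled nuclei, Cdh18 was negative in 7 classes and called in 3, Cdh6 was called in L2/3 (-0.80) and Cdh9 in L6 corticothalamic nuclei (-0.78). The classes share libraries and are not independent of one another.

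**Figure D5:**
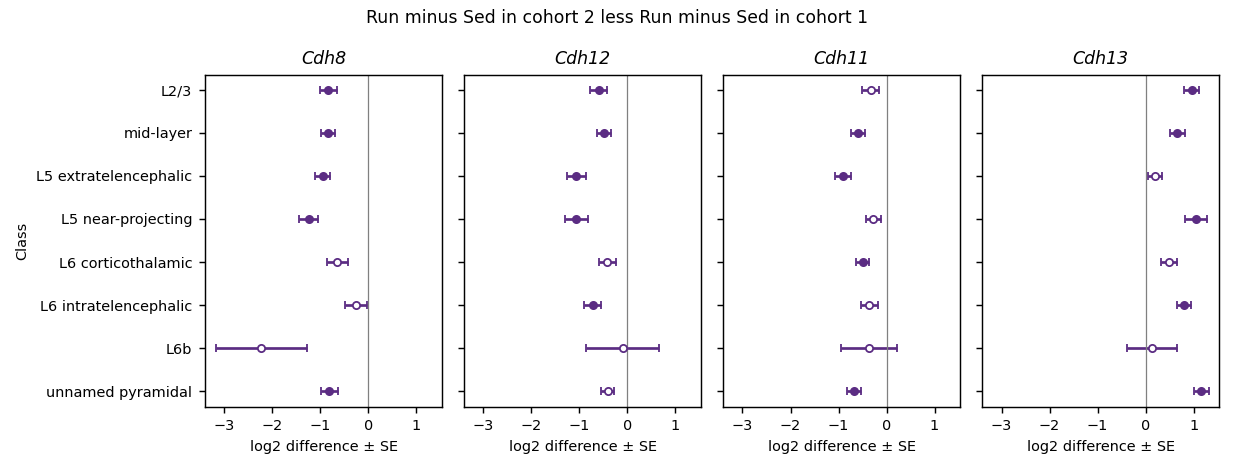
Difference between cohorts (cohort 2 minus cohort 1) in the Run minus Sed log2 difference ± SE for Cdh8, Cdh12, Cdh11 and Cdh13 in 8 pyramidal classes, with filled points for an adjusted p under 0.05 in edgeR. Cdh8, Cdh12 and Cdh11 lie below 0 in all 8 classes and Cdh13 above 0 in all 8.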

How the data were processed

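Nuclei of 6 libraries were analysed from the deposited raw UMI counts, which the authors made with Cell Ranger on mm10 with introns included (version 6.0.0 in the submitters' notes, 4 in the matrix headers). The 10 members and the list of 16 other cadherins and catenins were chosen with earlier results of these data known. Barcodes with 500 to 4000 genes, at most 1% mitochondrial UMIs and a UMI minimum set per library (the 99th percentile of the expected nuclei divided by 10) were kept, clustered jointly over the cohorts (scanpy 1.11.5, 3000 variable genes without members and list, 35 components, Leiden resolution 0.6) and named from at least 3 markers detected at 10 counts or more, a count lowered after the data were seen. Doublets were marked by Scrublet (1.09% to 6.75% of nuclei) and left out only in an alternative; 1676 nuclei of 8 clusters entered no class. Counts summed per class and library were tested with edgeR 4.0.16 in R 4.3.3 (TMM, filterByExpr, quasi-likelihood, Benjamini-Hochberg over all genes of the class, threshold 0.05) with cohort, maternal environment and housing as terms and 2 residual degrees of freedom; class comparisons were paired by library. The labels give only a cohort number, which was used as a block because the study's text describes the cohorts as independent experiments. Fits of rearing, housing or cohort that left out a library had 1 residual degree of freedom. Classes with at least 10 nuclei in every library were tested. All members are named, with the 4 largest changes of the list and the 2 most alike genes per member. The tests of Run minus Sed and of isolation in pyramidal and PV nuclei, and of PV against SST, were run on simulated counts without cohort differences. The fit of the cohort difference of Run minus Sed was not simulated. Alternatives were DESeq2 1.42.0, RLE factors, no filter on low counts, subtraction of background droplets (ranks 20001 to 60000), doublet removal, 1000 genes, cohorts clustered apart, no block and each library left out.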

Additional observations from a re-analysis of the deposited data

Results flagged for a closer look

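For 5 members the difference between Run and Sed in pyramidal nuclei was itself different in the 2 cohorts, by edgeR's test of the interaction on log2 values (cohort 2 minus cohort 1). Cdh8 gave -1.14, Cdh12 -0.78, Cdh10 -0.55 and Cdh11 -0.37, and Cdh13 gave 0.73. The fit had 1 residual degree of freedom, the cohort 1 side is a single pair of pooled libraries, and the share of L6 corticothalamic nuclei moved with the same libraries. Within single pyramidal classes Cdh8, Cdh12 and Cdh11 kept the sign of the pooled value in 8 of 8 and Cdh13 in 8 of 8, whereas Cdh10 kept it in 7 of 8, was called in 1 and was 0.12 in L5 near-projecting nuclei. DESeq2 called 2 of the 5 members, Cdh8 and Cdh12. With the background droplets subtracted the values were -1.23, -0.84, -0.64, -0.44 and 0.76 in the same order, and all 5 were called. The cohort 1 levels of Cdh8, Cdh10 and Cdh11 and the Sed level of Cdh12 were below the background droplets of their libraries. Such levels cannot be told apart from free RNA. Cohort 1 holds group-housed libraries only, whereas the cohort 2 side includes isolated males. The ratios of the group-housed pairs alone, given above, are of CPM without the TMM scaling of the fit. They are therefore not on the scale of these values. The part of depth, free RNA, housing, prior testing and the choice of cohort 1 males by rank in this was not tested.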

How the results depend on the processing

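No condition has a second library within a cohort, the libraries differed in depth, and class levels at or below those of background droplets cannot be told apart from free RNA. Of the alternative fits of single members, 385 class comparisons kept their call and direction, 6 lost the call and 1 gained it. For the members called in the cohort difference of Run minus Sed, 50 alternatives kept the call, 24 lost it and 1 reversed. Of 30 alternative levels of the highest class 27 moved by less than the spread between libraries. The 3 others were Cdh11 with background subtracted (802.4 CPM) and Cdh20 as a mean share per nucleus (443.1 CPM) or thinned to 1000 UMIs (448.5 CPM).

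With each library left out in turn, the number of members called ran from 0 to 3 for Run minus Sed and from 0 to 2 for isolation in pyramidal nuclei, from 1 to 6 between cohorts, and from 0 to 21 and 0 to 4 in the other classes for Run minus Sed and isolation. The highest of these counts came from leaving out a cohort 1 library, and the 1 between cohorts from leaving out the Sed GH library of cohort 2. For pyramidal against inhibitory nuclei it stayed at 9 to 9, for L2/3 at 8 to 9 and for PV against SST at 9 to 10. Without a filter on low counts 3 tests of other classes were called for Run minus Sed, and with cohort 2 alone 2 for isolation. The cohort difference of Run minus Sed had 5 members called, 2 with DESeq2, and within classes 5 in L2/3, 4 in mid-layer, 4 in L5 near-projecting, 3 in L5 extratelencephalic, 3 in L6 corticothalamic, 3 in L6 intratelencephalic and 3 in unnamed pyramidal nuclei and 0 in L6b. Of 15 alternatives each, classes included, Cdh8 and Cdh12 kept their call in 12, Cdh13 in 11, Cdh11 in 8 and Cdh10 in 7. Cdh10 turned from -0.55 to 0.12 within L5 near-projecting nuclei. The cause was not tested. This fit could not be repeated without a library, as no residual degree of freedom remains.

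With no replicate block, 0 members were called for Run minus Sed and 0 for isolation, as in the fit with it, and 9, 8 and 8 in the 3 class comparisons, where the genes called went from 8400 to 3799 (pyramidal against inhibitory), from 6056 to 2498 (L2/3 against L6 corticothalamic) and from 2862 to 972 (PV against SST, 1892 with DESeq2). In pyramidal nuclei, 0 genes were called for Run minus Sed, 45 with DESeq2, 11 without a filter on low counts and 2682 and 2669 without a cohort 1 library. For isolation there the counts were 0 and, without those libraries, 35 and 35, and 2 with cohort 2 alone. In PV nuclei the 10 genes called for Run minus Sed became 4 with DESeq2, 24 without a filter, 1 with background subtracted, 0 with no replicate block and 5 to 162 without a library. Between cohorts, 6832 genes became 3129 to 3679 without a cohort 2 library. The interaction called 2081 genes, or 414 with DESeq2.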
